A study of Mus musculus with 4 samples.

Results

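The Hox genes are the 36 genes measured here out of the mouse Hox clusters, among 22180 genes in all. They were taken as every gene named Hoxa, Hoxb, Hoxc or Hoxd followed by a number in the platform annotation, from probe sets with exactly 1 symbol. Where a gene had several such probe sets the brightest by its mean over the 4 arrays stood for it, and dim genes were kept. This applied to 1 member, Hoxb5. Hoxd4 and Hoxa11 are no members, since they have only probe sets shared with another gene.

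The samples were mammary epithelial cells from inguinal glands of 4 week-old mice on a congenic FVB/NJ background. In 2 samples the mice were MMTV-Cre+, with Cre recombinase under the MMTV promoter, taken from the terminal repeat of a mouse mammary tumour virus, and 2 samples came from wild-type littermates. This promoter is known for activity in mammary epithelium and also in some other tissues, and no floxed allele is named in the labels. Each sample was hybridised to 1 array, and nothing in the labels says how many mice a sample holds. Values are log2 expression from the RMA method, in which each array's distribution is made alike, and the array medians over all probe sets lay between 2.83 and 2.86.

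Hox genes encode transcription factors that bind DNA through a homeodomain. They lie in clusters on separate chromosomes, HoxA to HoxD, and genes at the same place in different clusters form a paralogue group, numbered from 1 at the anterior end to 13 at the posterior end. In the embryo the order along the chromosome matches the order of expression along the body axis, with low numbers toward the head and high numbers toward the tail. In mice, Hoxc8 takes part in the placing of mammary buds, and Hoxa9, Hoxb9 and Hoxd9 act together in growth of the gland in pregnancy.

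No member stood above background in a probe set of its own. The files hold no detection calls, so a background limit was set from 1373 olfactory and vomeronasal receptor genes, which are generally silent outside sensory epithelium. The limit is the 95th percentile of their mean levels, 2.999 on the log2 scale, and 0 of 36 Hox genes lay above it, against 10926 of all 22180 genes (49.3%). The members' mean levels ran from 1.37 for Hoxd13 to 2.94 for Hoxd8, with a median of 1.99. The median of the receptor genes was 1.48 and that of all genes 2.96. Some receptor genes were bright, the highest at 10.23, so the limit is a strict one. At a looser limit, the 2.84 of a median probe set, Hoxd8 alone of the members passed.

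The members lay high within the receptor genes' range, as did most genes. Of the 36, 33 exceeded the receptor median and 21 exceeded 75 percent of the receptor genes. The median of all genes, 2.96, lay above both marks, so this is no trait of the members. Brightness also depends on each probe set's own sequences, so a second set was chosen after the Hox values were seen, 33 transcription factor genes of brain, eye, pancreas, heart, muscle and other tissues. Their median was 1.87, with a lowest value of 1.51, a 95th percentile of 2.50 and a highest value of 2.61. All 33 thus exceeded the receptor median too. Above that 95th percentile lay 8 of 36 members, namely Hoxa5, Hoxa6, Hoxa9, Hoxb4, Hoxc4, Hoxc10, Hoxd8 and Hoxd10. The median of all genes, 2.96, lay above this percentile too, so most genes passed it and passing does not set the 8 apart. This percentile rests on few genes, and none of the 8 was above the receptor limit. A level under either limit says that the transcript was not separated from background on these arrays, not that it was absent.

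**Figure D1:**
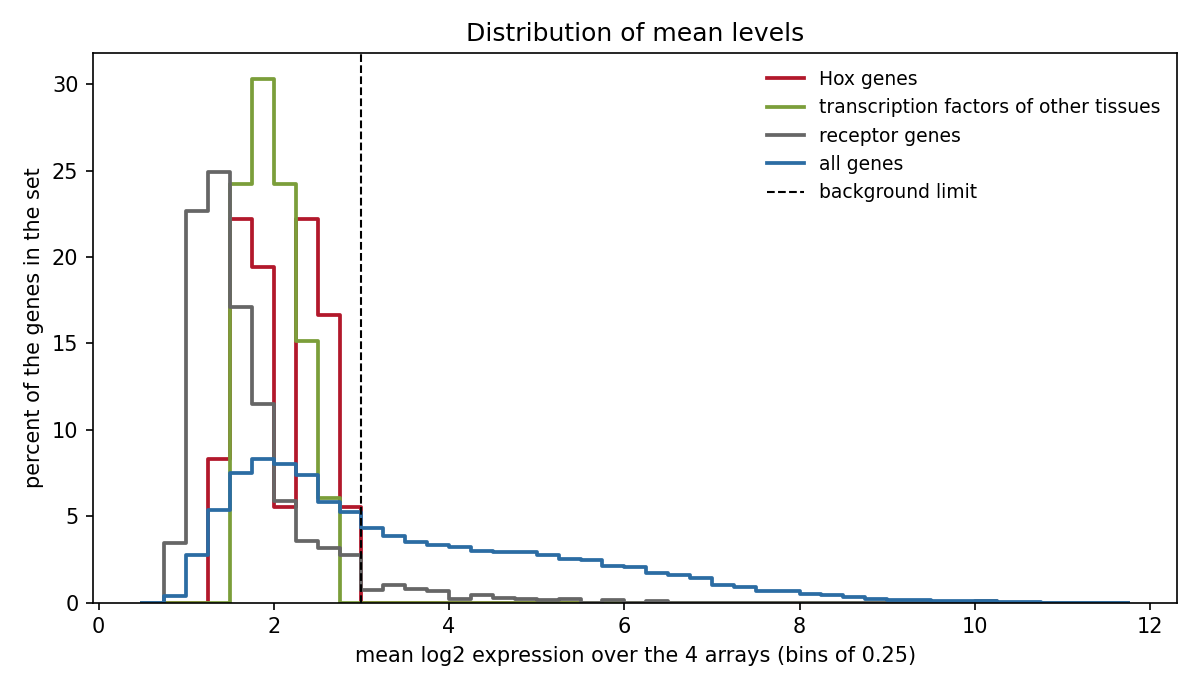
Percent of the genes in each set (vertical axis) by mean log2 expression over the 4 arrays in bins of 0.25 (horizontal axis), for Hox genes, transcription factors of other tissues, receptor genes and all genes. The dashed line is the background limit of 2.999, and all 36 Hox genes lie left of it, between 1.37 and 2.94.

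The members nearest the limit, the 8 just named, ran from paralogue group 4 to group 10. Groups bounded that way, with 21 members, must hold all 8. They leave none to the 7 members of groups 1 to 3 and the 8 of groups 11 to 13. Groups 4 to 10 also held dim members, among them Hoxb8 at 1.42 and Hoxc5 at 1.47. Split by the same bounds, mean levels had a median of 1.86 in groups 1 to 3, of 2.34 in groups 4 to 10 and of 1.65 in groups 11 to 13. The bounds were drawn around the highest members, so a higher median between them was favoured in advance and nothing is read from it. These are different probe sets whose brightness is not calibrated between genes, and no test was made of the pattern.

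In HoxD the highest member was Hoxd8. It read 2.89 and 2.96 in MMTV-Cre, against 2.99 and 2.93 in wild-type. The groups overlapped. Hoxd10, known for its part in hindlimb motor neurons, read 2.66 and 2.80 in MMTV-Cre and 2.60 and 2.78 in wild-type. Here too the groups overlapped. Hoxd13, a gene of digit and genital development, was the dimmest of all members at 1.291 and 1.254 in MMTV-Cre and 1.495 and 1.438 in wild-type. Both MMTV-Cre values were the lower ones, and the gene's interval included 0 (log2 difference −0.19, 95% interval −0.48 to 0.10). Of the 8 members of HoxD, 3 exceeded 75 percent of the receptor genes, and Hoxd1, Hoxd3, Hoxd9 and Hoxd11 had mean levels of 1.53, 1.86, 1.72 and 1.64.

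The upstream sequences of Hoxd8 and Hoxd13 are shown because these genes bound the members' range and share a cluster. Each is the 250 bases before the transcript start in RefSeq, GRCm38.p6, plus strand, with CG dinucleotides in capitals. That of Hoxd8 lies at chr2:74704365-74704614 and that of Hoxd13 at chr2:74667975-74668224.
Hoxd8: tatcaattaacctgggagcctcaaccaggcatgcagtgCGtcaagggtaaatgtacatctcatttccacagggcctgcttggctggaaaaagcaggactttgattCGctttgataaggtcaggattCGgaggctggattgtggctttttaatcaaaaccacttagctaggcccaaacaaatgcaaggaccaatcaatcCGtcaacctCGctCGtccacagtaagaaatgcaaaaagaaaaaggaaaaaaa
Hoxd13: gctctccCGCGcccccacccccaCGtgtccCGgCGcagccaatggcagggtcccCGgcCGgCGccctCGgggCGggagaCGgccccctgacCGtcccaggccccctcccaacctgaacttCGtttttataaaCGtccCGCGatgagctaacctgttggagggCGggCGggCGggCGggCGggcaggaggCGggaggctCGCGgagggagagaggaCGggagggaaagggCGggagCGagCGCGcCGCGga
The dimmest member had the more CG-rich upstream sequence. The Hoxd13 stretch holds 31 CG dinucleotides, a count that 5.19% of the 32851 promoters in the table reach, and its G and C content is 74.4%. The Hoxd8 stretch holds 6, which 50.4% reach, with a G and C content of 44.4%. A comparison over all members is void, since only 20 of the 36 have a promoter in the table.

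In HoxC the member closest to the limit was Hoxc10, which takes part in hindlimb motor neuron identity. It read 3.07 and 2.74 in MMTV-Cre and 2.67 and 2.82 in wild-type. The first of these was the only 1 of the 144 member values above 2.999, and it lay under that array's own receptor limit of 3.18. Hoxc4 read 2.55 and 2.62 in MMTV-Cre and 2.54 and 2.72 in wild-type, with overlapping groups. Hoxc8, the mammary placement gene, read 1.85 and 1.90 in MMTV-Cre and 1.79 and 2.08 in wild-type. Its level exceeded that of 76.4% of the receptor genes. The most even member of the cluster was Hoxc9, at 2.38 and 2.39 in MMTV-Cre and 2.40 and 2.34 in wild-type. Hoxc13, a hair follicle gene, averaged 1.59 in MMTV-Cre and 1.76 in wild-type.

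In HoxA, 3 members stood close together. Hoxa5, known for its role in lung development, read 2.55 and 2.56 in MMTV-Cre and 2.59 and 2.93 in wild-type. Hoxa6 read 2.71 and 2.79 in MMTV-Cre and 2.51 and 2.50 in wild-type. The groups were apart in both genes, in opposite directions, and neither passed the test. Hoxa9 read 2.48 and 2.70 in MMTV-Cre and 2.82 and 2.51 in wild-type, with overlapping groups. Hoxa2, which patterns the hindbrain and branchial arches, and Hoxa13 were far dimmer, with mean levels of 1.73 and 1.52.

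In HoxB the highest member was Hoxb4, known from blood stem cells, at 2.60 and 2.39 in MMTV-Cre and 2.27 and 2.79 in wild-type. Both wild-type values lay outside the MMTV-Cre pair, 1 on each side. Hoxb13, a gene of the prostate, read 1.83 and 1.48 in MMTV-Cre and 1.54 and 1.64 in wild-type. Hoxb8 had the lowest mean level of the cluster, 1.42. The 2 probe sets of Hoxb5 had mean levels of 2.33 and 1.97, both under the limit.

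**Figure D2:**
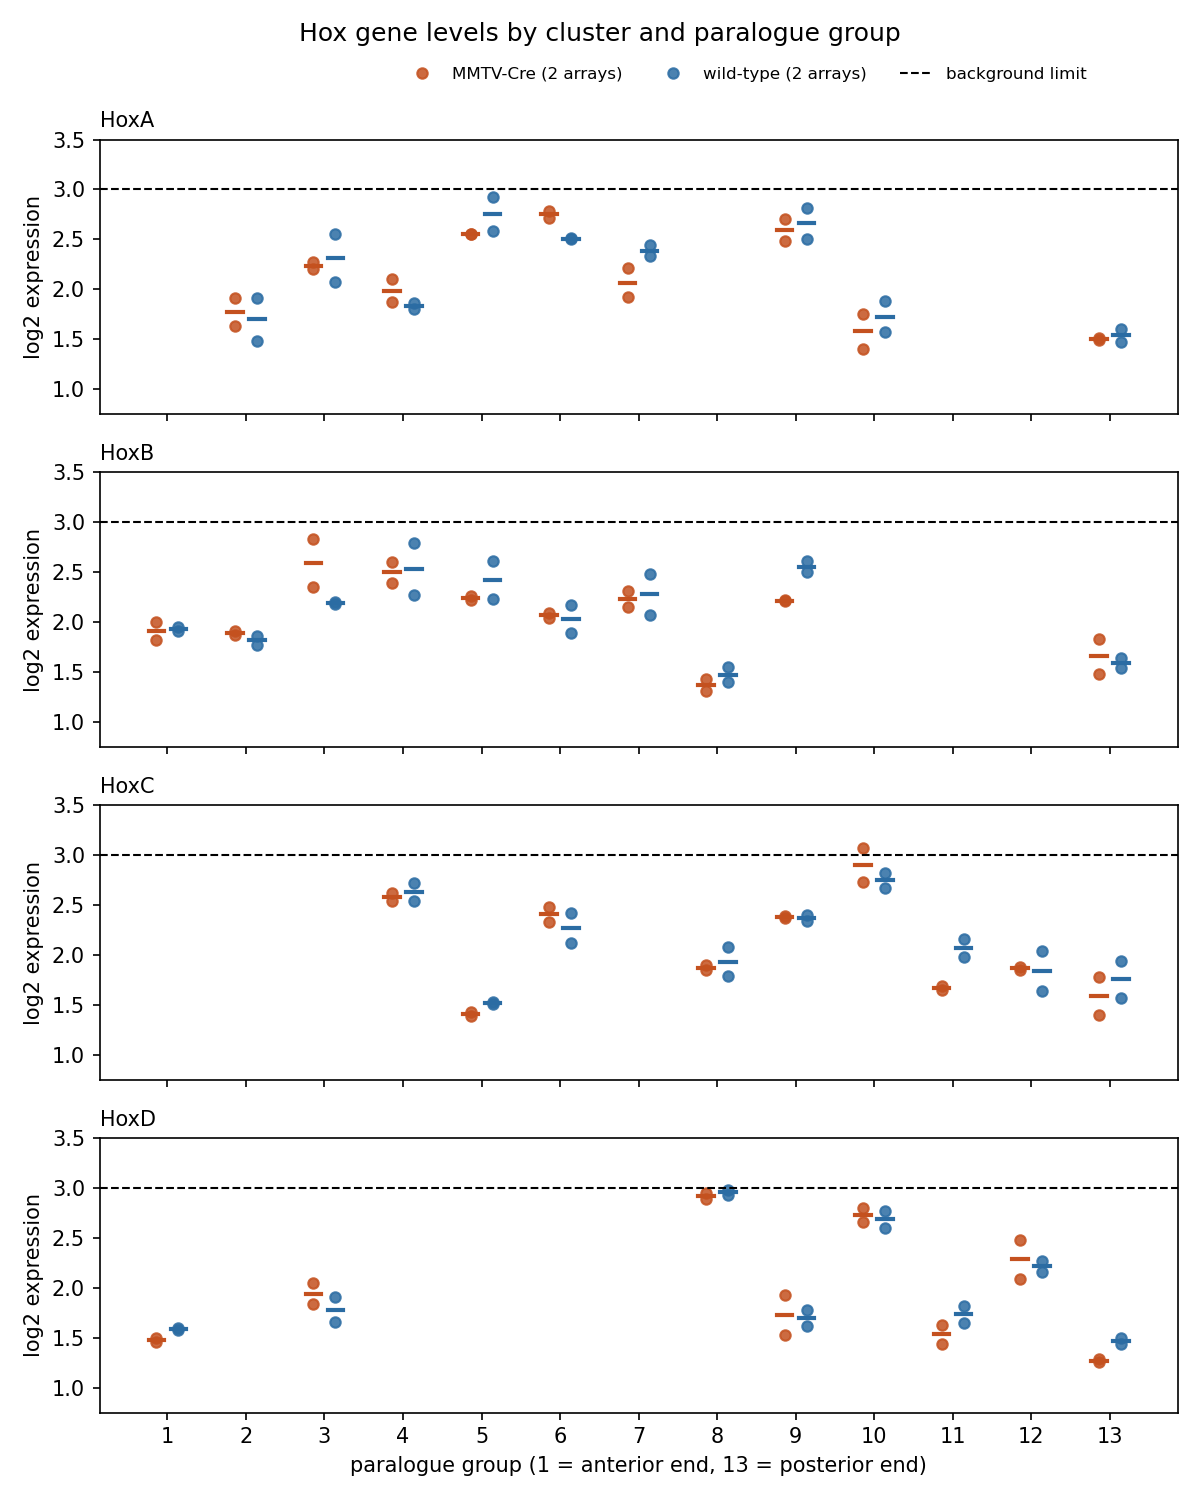
Log2 expression (vertical axis) of each Hox gene by paralogue group (horizontal axis) in the 4 clusters, with a point per array, a bar at the group mean, MMTV-Cre to the left and wild-type to the right. The dashed line is the background limit of 2.999, which 1 value exceeds, that of Hoxc10 in an MMTV-Cre array at 3.07.

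The Hox part of each array looked alike across samples. Pearson's r over the 36 members ran from 0.850 to 0.904 for the 6 pairs of arrays. This is a description across genes, which share probe sets between arrays and are not independent replicates. The highest correlation was that of the 2 MMTV-Cre arrays and the lowest that of the 2 wild-type arrays. A member's range over the 4 arrays had a median of 0.37 log2 units and reached at most 0.65.

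The contrast between genotypes asks whether carrying the transgene goes with other transcript levels in these cells. By limma, with Benjamini-Hochberg adjustment over all 22180 genes, 0 of 36 Hox genes passed an adjusted p of 0.05 (smallest 0.963), and 0.00% of all genes did. At an unadjusted p under 0.05 there were 2 members, Hoxc11 and Hoxb9, both lower in MMTV-Cre. The background for that call is 1012 genes or 4.56%, so the members' share of 5.56% was near it. By direction, the background is 2.30% for lower genes, where 2 members were called, and 2.26% for higher genes, where 0 were. Groups that did not overlap, with every MMTV-Cre array above or every one below the wild-type arrays, were found in 12 of 36 members and in 33.0% of all genes. They divided into 8 lower members, where the background is 16.3%, and 4 higher ones, where it is 16.6%.

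Hoxc11, of the paralogue group that mouse kidney development needs, read 1.68 and 1.65 in MMTV-Cre and 2.16 and 1.98 in wild-type. Its log2 difference was −0.40 (95% interval −0.72 to −0.09, limma adjusted p = 0.963). The higher wild-type value came from replicate 1, an array in which T cell markers were also high, as given below. Without that array the log2 difference was −0.31. The unadjusted limma p of Hoxc11 rose above 0.05 without that array (0.115), and also without MMTV-Cre replicate 1 (0.0568) or MMTV-Cre replicate 2 (0.0725), but not without wild-type replicate 2 (0.0293).

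Hoxb9, one of the genes that act together in the gland in pregnancy, read 2.22 and 2.21 in MMTV-Cre and 2.50 and 2.61 in wild-type. Its log2 difference was −0.34 (95% interval −0.64 to −0.04, limma adjusted p = 0.963). Its paralogues Hoxa9, Hoxc9 and Hoxd9 had log2 differences of −0.07, 0.01 and 0.03, with intervals that included 0. Leaving out any 1 array raised the unadjusted limma p of Hoxb9 above 0.05, to between 0.0588 and 0.145. All values of both genes lay under the background limit, where such small differences are hard to size.

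The other 34 members had 95% intervals that included 0. The largest difference above 0 was that of Hoxb3, at 2.83 and 2.35 in MMTV-Cre and 2.18 and 2.20 in wild-type (log2 difference 0.40, 95% interval −0.05 to 0.86). Replicate 1 of MMTV-Cre held the higher value. Hoxa7 read 2.21 and 1.92 in MMTV-Cre and 2.33 and 2.44 in wild-type, and its log2 difference was −0.32. In all, 21 of 36 differences lay below 0, where the background is 50.4%, and their median was −0.04, beside −0.00 over all genes. Every member's interval lay within 1 log2 unit of 0, with a median half-width of 0.36. The intervals thus leave out 2-fold differences in signal on the deposited scale, which may understate differences near background. Since the members lay under the background limit, this sets no bound on differences in transcript. With 2 samples a group, no two-sided exact permutation p can go under 0.333.

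**Figure D3:**
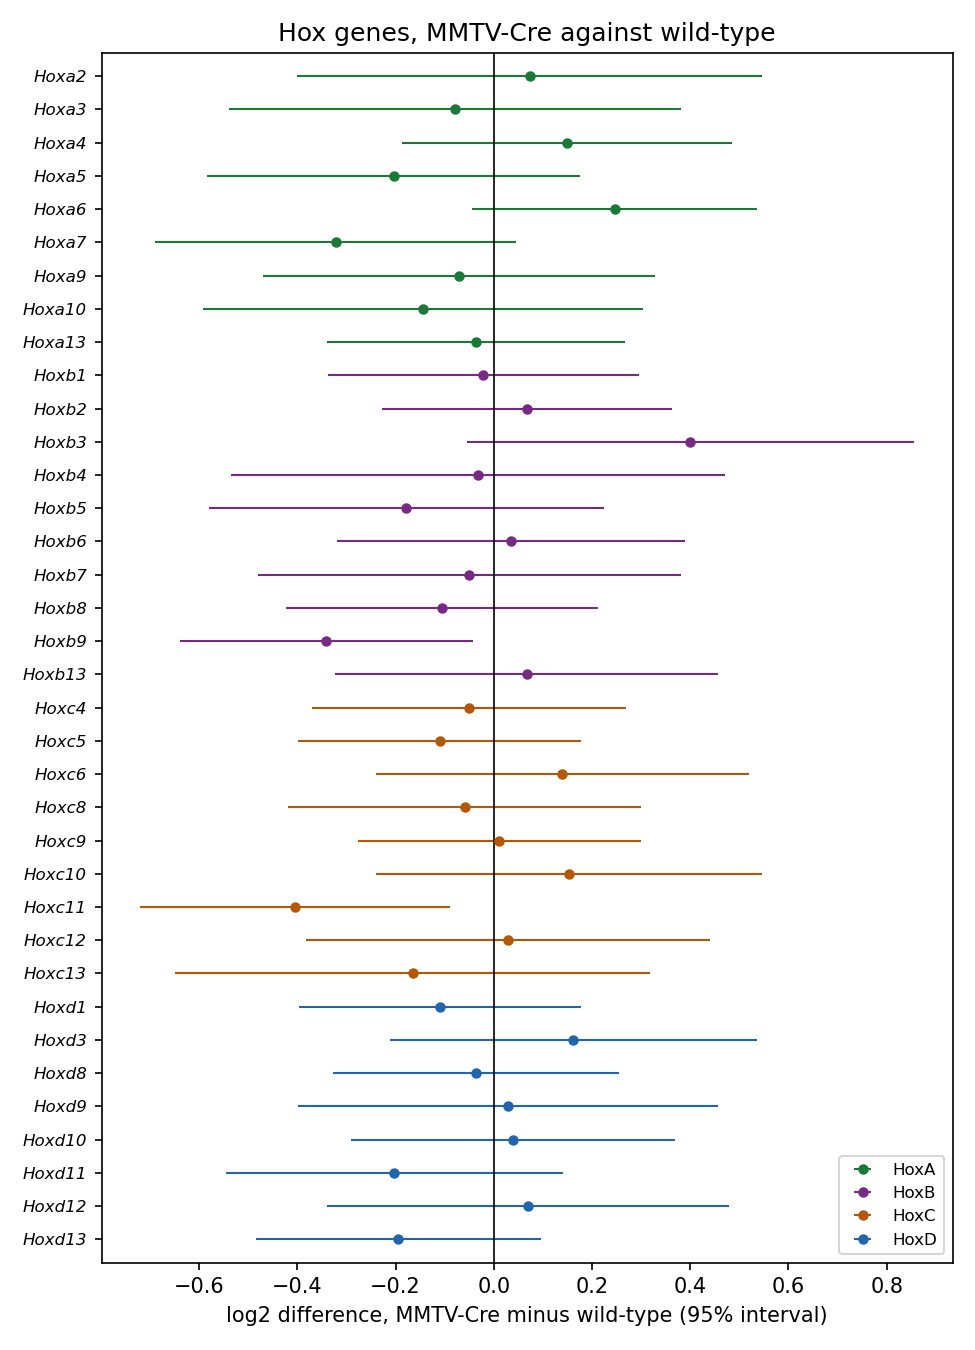
Log2 difference, MMTV-Cre minus wild-type (horizontal axis), of the 36 Hox genes from limma, with 95% intervals and colours for the clusters. The intervals of Hoxb9 and Hoxc11 leave out 0, both on the lower side, and the other 34 include it.

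By cluster, the median log2 difference was −0.07 in HoxA (9 members), −0.03 in HoxB (10), −0.05 in HoxC (9) and −0.00 in HoxD (8). The groups did not overlap in 4 members of HoxA, 3 of HoxB, 2 of HoxC and 3 of HoxD, with 33.0% of all genes as the background, and nothing is read from counts this small. The members of groups 11 to 13 had a median difference of −0.10. Groups 1 to 3 had a median of 0.07. Differences between these parts were not tested.

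Transcripts of the clusters other than the members included microRNA genes. The microRNAs miR-10 and miR-196 are known to repress Hox messages, and each family has copies in more than 1 cluster. The mature sequences, from RefSeq on GRCm38.p6, are shown because they share seeds across clusters, with the seed (bases 2 to 8) in capitals.
mmu-miR-196a-5p: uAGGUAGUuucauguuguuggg
mmu-miR-196b-5p: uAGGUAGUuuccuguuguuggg
mmu-miR-10a-5p: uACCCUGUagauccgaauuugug
mmu-miR-10b-5p: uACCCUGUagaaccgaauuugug
The same miR-196a-5p is encoded at chr11:96265187-96265208 between Hoxb13 and Hoxb9 (Mir196a-1) and at chr15:102973365-102973386 between Hoxc10 and Hoxc9 (Mir196a-2). Mir196a-1 read 2.71 and 2.61 in MMTV-Cre and 2.16 and 2.30 in wild-type. Both MMTV-Cre arrays held the higher values. The log2 difference was 0.43 (95% interval 0.12 to 0.74, limma adjusted p = 0.963). Mir196a-2, with the same mature sequence, read 2.85 and 2.85 in MMTV-Cre and 2.95 and 2.50 in wild-type. Its groups overlapped, and what part of these values comes from precursor or mature RNA is not given in the sources used here. Mir10b, at chr2:74726074-74726096, had a mean level of 1.04, which exceeded that of 5.24% of the receptor genes.

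Of 7 noncoding genes of the clusters with a probe set of their own, 1 stood above the background limit. This was Mir615, at chr15:103014926-103014947 inside Hoxc5, which read 3.79 and 4.07 in MMTV-Cre and 3.77 and 3.61 in wild-type. Its log2 difference was 0.24 (95% interval −0.13 to 0.61), and Hoxc5 itself had a mean level of 1.47. Hotair, a long noncoding RNA of HoxC, had a mean level of 2.01, Hoxaas3 of HoxA 2.10 and Hoxd3os1 of HoxD 1.91.

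Of the probe sets that the annotation gives to a Hox gene and a second gene together, 2 lay above the limit. The one shared by Hoxb3 and Hoxb2 read 3.97 and 4.06 in MMTV-Cre and 3.85 and 3.81 in wild-type, and the one shared by Mira and Hoxa7 had a mean of 3.34. Neither can be given to a single gene, and Hoxb3, Hoxb2 and Hoxa7 had mean levels of 2.39, 1.85 and 2.23 in probe sets of their own. Both genes of the first shared probe set are members. That no member stood above background therefore holds only for probe sets with 1 symbol. The probe set shared by Hoxd4 and Hoxd3 had a mean of 2.18, and the pair shared by Hoxa11 and its antisense gene 1.71 and 1.82.

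Most genes listed here whose proteins work with Hox factors or on their chromatin stood above the background limit. Their share was larger than the 49.3% among all genes. Among the TALE homeodomain cofactors, which bind DNA together with Hox proteins, 6 of 8 measured genes did so. The brightest was Meis1, at 5.13 and 4.67 in MMTV-Cre and 4.61 and 4.69 in wild-type, and the median of the list was 3.69. The 3 cofactors with the smallest p were Meis2, Pknox1 and Pbx4. Meis2 read 2.33 and 2.76 in MMTV-Cre and 2.14 and 1.88 in wild-type (log2 difference 0.53, 95% interval 0.06 to 1.00). It was higher in both MMTV-Cre arrays, under the limit, and did not pass (limma adjusted p = 0.963). Pknox1 and Pbx4 differed by −0.30 and −0.26 on the log2 scale, with intervals that included 0.

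Polycomb proteins keep Hox genes silent outside their domains, and Trithorax proteins keep them active within. Of 17 measured Polycomb genes 12 stood above the limit, with a median level of 5.08, and all 11 Trithorax genes did, with a median of 5.58. None of either list passed the adjusted threshold. The H3K27 methyltransferase gene Ezh2 averaged 6.12 in MMTV-Cre and 6.04 in wild-type, and Kmt2a, whose protein maintains Hox expression, averaged 7.45 in MMTV-Cre and 7.42 in wild-type. At an unadjusted p under 0.05 there was 1 gene over both lists, where the background is 4.56% of all genes. It was the Trithorax complex member Dpy30, with a log2 difference of 0.34 (95% interval 0.02 to 0.65). The next by p were Rbbp5 and Cbx8, with log2 differences of −0.21 and −0.27 and intervals that included 0.

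Retinoic acid sets the anterior limits of Hox expression in the embryo. Of 17 measured genes of its pathway 10 stood above the limit, where the share of all genes is 49.3%, and 0 passed the adjusted threshold. The enzyme genes Rdh10 and Aldh1a3, which act in steps that make retinoic acid, had mean levels of 8.02 and 7.96, while Aldh1a2 had 2.01. The gene with the smallest p was Cyp26b1, which encodes an enzyme that breaks retinoic acid down. It read 2.87 and 2.77 in MMTV-Cre and 2.47 and 2.56 in wild-type. All lay under the limit, and the log2 difference was 0.31 (95% interval 0.01 to 0.61, limma adjusted p = 0.963).

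Genes that flank the clusters stood above the limit about as often as genes in general. Of 13 measured flanking genes 7 did so, beside 49.3% of all genes. Of the 13, 0 passed the adjusted threshold or an unadjusted p under 0.05. Beside HoxD, Atf2 and Mtx2 had mean levels of 6.09 and 5.35, while Evx2, the homeobox gene next to Hoxd13, had 1.82. Beside HoxA, Skap2 and Hibadh had 5.41 and 4.48, while Evx1 had 1.72. Both Evx genes lay in the members' range. Of 11 measured genes in a list of other developmental regulators, mostly homeobox genes, 5 stood above the limit, a share near that of all genes. Among them were the mammary regulators Tbx3 and Msx2 at 4.80 and 3.97, while Tbx2 had 2.28. Another of the 5, Satb1, had a mean of 3.54 that 1 array raised, as given below.

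**Figure D4:**
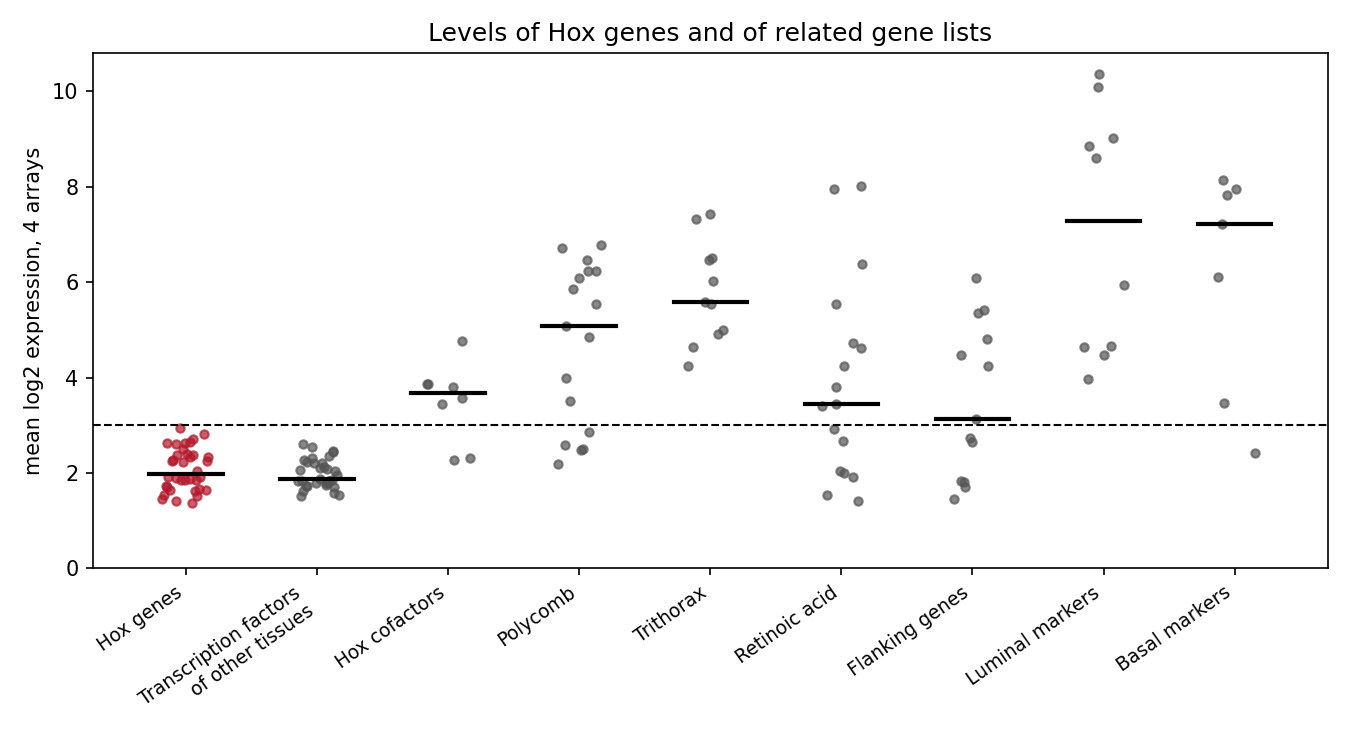
Mean log2 expression over the 4 arrays (vertical axis) of each gene in the lists named along the horizontal axis, with a point per gene, a bar at the list's median and the background limit of 2.999 dashed. All 11 Trithorax genes lie above the limit and all 36 Hox genes below it.

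Markers of the labelled cell type were present. All 10 luminal and 6 of 7 basal markers stood above the limit, beside 49.3% of all genes. The median levels were 7.28 for luminal and 7.23 for basal markers. Markers of other cells were present too, with all 5 endothelial and 5 of 6 adipocyte markers above the limit. The 10 fibroblast markers, all above the limit, averaged 6.41 and 6.93 in MMTV-Cre and 6.45 and 6.44 in wild-type. Of these, 5 were higher in both MMTV-Cre arrays, where the background is 16.6% of all genes. The 7 T cell markers averaged 2.91 and 3.04 in MMTV-Cre, against 5.90 in wild-type replicate 1 and 3.09 in wild-type replicate 2. Their part in the Hox differences was not tested. In such bulk samples fewer cells of a type and less RNA per cell cannot be told apart.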

How the data were processed

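Per the submitters' processing notes, the authors made the deposited log2 values with oligo and RMA, whose versions were not stated. That the scale is log2 was read from the values. Of 41345 probe sets, 23521 had 1 symbol, 1814 several and 16010 no gene named here. All 36 members were matched to RefSeq by Entrez identifier. The number of arrays limits the precision. Where nothing says that samples came from separate mice, p-values measure only the spread between these samples.

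MMTV-Cre was set against wild-type in limma 3.58.1 under R 4.3.3 (lmFit and eBayes, two-sided, Benjamini-Hochberg adjusted over 22180 genes), without a filter on dim genes, since the members include dim genes. The procedure was tested on simulated data with planted differences far larger than any Hox difference here, so that test does not cover differences of this size. The members and lists were chosen with earlier results of these data known. The rule for named genes took members above background or at an unadjusted p under 0.05, and up to 3 genes of each related list with the smallest p. Others named were chosen after their values were seen. Alternatives were filters, normalization, variance models, a replicate block, other background limits and leaving out each array.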

Additional observations from a re-analysis of the deposited data

How the results depend on the processing

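The count of Hox genes past the adjusted threshold stayed at 0 in every alternative that tested any of them, and no Hox gene was left to test at the 75th percentile filter. The count of all genes past it was 0 except without wild-type replicate 2, where it was 7, a range of 0 to 7 without 1 array each. These fits take the lone array of a group to vary as the other group does. Hox genes at an unadjusted p under 0.05, 2 in all, were 1 with an intensity trend and 1 with the replicate number as a block, Hoxc11 in both. They ran from 0 to 1 without 1 array each, and were not always the same gene. There was 0 without wild-type replicate 1, Hoxc11 alone without wild-type replicate 2, Hoxa7 alone (log2 difference −0.47) without MMTV-Cre replicate 1, and Hoxb3 alone (0.64) without MMTV-Cre replicate 2. With the median filter only Hoxd8 was tested and the count was 0. The replicate numbers were not shown to pair the samples, since deviations from the group means correlated at −0.02 over 22180 genes. The median Hox difference lay between −0.06 and 0.00 over the fits without 1 array, turning from −0.04 to 0.00 without wild-type replicate 2. The count of Hox genes above background was 1 at the median over all probe sets, 8 at the limit from transcription factors of other tissues, an alternative chosen after seeing the data, and 0 at the other limits and without any 1 array. The dim range limits all of these values.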

Other observations

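Skap1, which encodes an adaptor protein of T cells and lies beside HoxB, read 2.52 and 2.30 in MMTV-Cre, against 3.57 in wild-type replicate 1 and 2.20 in wild-type replicate 2. Satb1, a chromatin regulator with a homeodomain that is abundant in T cells, read 2.89 and 3.08 in MMTV-Cre, against 5.47 in wild-type replicate 1 and 2.74 in wild-type replicate 2. Both were high in the array with high T cell markers, and their log2 differences of −0.48 and −1.12 had intervals that included 0.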
